A study of Mus musculus with 6 samples.

Results

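The genes described are the milk protein and secretory genes of the mammary gland: 4 caseins (Csn1s1, Csn1s2a, Csn2 and Csn3), the whey proteins Wap and Lalba, the milk fat globule genes Mfge8 and Btn1a1, and the antimicrobial genes Lcn2 and Ltf. All probe sets annotated with 1 of these symbols and no other were taken, which gave 18 probe sets for 10 genes, out of 34945 probe sets for 18194 genes. Affymetrix expression arrays measured the RNA of V720, a line of mouse mammary tumour cells labelled as mammary epithelium. A group of 3 samples received vehicle and a group of 3 received 1 µM PD0332991 for 24 h, and the series text calls each group a biological triplicate. All 6 samples were grown in DMEM with fetal calf serum, and the labels name no lactogenic hormone, no genotype and no clone. PD0332991 (palbociclib) inhibits CDK4 and CDK6, the kinases that phosphorylate the retinoblastoma protein at entry into S phase. The comparison asks which transcripts differ after treatment with this compound.

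Milk proteins are made by alveolar cells, the secretory luminal cells that differentiate in pregnancy. Prolactin acts through its receptor, the kinase JAK2 and the transcription factor STAT5, which binds milk protein promoters together with factors such as ELF5, C/EBP beta and the glucocorticoid receptor. Caseins, which form the calcium-carrying micelles of milk, lie in 1 gene cluster, whereas lipocalin 2 and lactoferrin are also made by neutrophils and by epithelia under inflammatory signals.

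V720 cells had a strong signal for 3 of the 10 genes, Csn3, Mfge8 and Lcn2, in both groups, and little or none for the other caseins and the whey proteins. With PD0332991, Csn3 was called higher at 1.13-fold and Btn1a1 at 1.29-fold, both small changes, while the other 8 genes did not pass the test. Neither call was firm. Both were lost after spike-in centring, and on removal of any of 5 (Csn3) or 4 (Btn1a1) single arrays. Another, dimmer Csn3 probe set moved more but was not called. In RNA from whole cultures, more cells using a gene and more RNA of it per cell cannot be told apart. Of all genes tested, 21.0% were called (limma, adjusted p under 0.05), 9.81% higher and 11.2% lower, so that 2 of 10 genes called is near the background. The median log2 fold change was 0.11 over the 10 genes and 0.0048 over all genes. A log2 fold change is that of intensity + 16, PD0332991 over vehicle, from the fit over all genes, and a gene with several probe sets was represented by its brightest one.

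The arrays were at a like level, with median probe-set intensities of 69.8 to 72.9. Hybridization spike-ins averaged 9.74 on a log2 scale on the array of vehicle replicate 1 and 9.94 to 10.05 on the other 5, and centring on them moved the median of all genes to -0.12 (-0.045 without that array). In a cell cycle list of 22 measured genes, 18 were lower and 4 higher with PD0332991. Cdc6 fell from 754.5 ± 24.5 to 223.4 ± 7.45 (SD, n = 3 each) and Ccnd2 rose from 547.6 ± 46.5 to 1566 ± 83.8 (SD, n = 3 each). The activity of CDK4 and CDK6 was not measured. The mammary epithelial label was matched by luminal markers: 14 of 15 were above the background gauge described next, all but Krt19, among them Epcam, Krt8 and Krt18. Of 11 basal markers 5 were above it, namely Acta2, Mylk, Oxtr, Tagln and Lgals7. Krt5, Krt14, Krt17, Trp63, Cnn1 and Myh11 were not.

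Detection calls were not used here, so the 44 probe sets of olfactory receptor genes, which mammary epithelium is not known to use, served as a gauge of background. Their intensities had a median of 19.3 and a 95th percentile of 61.9. Of the 18 probe sets, 7 were above that percentile in the mean of at least 1 group and 11 were not. The 7 belonged to 6 genes, Csn1s1, Csn3, Mfge8, Btn1a1, Lcn2 and Ltf. Csn1s2a, Csn2, Wap and Lalba had no probe set above it. Log2 values of these 4 genes come from signals at background level and are given for their sign and interval, not as a size of change.

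**Figure D1:**
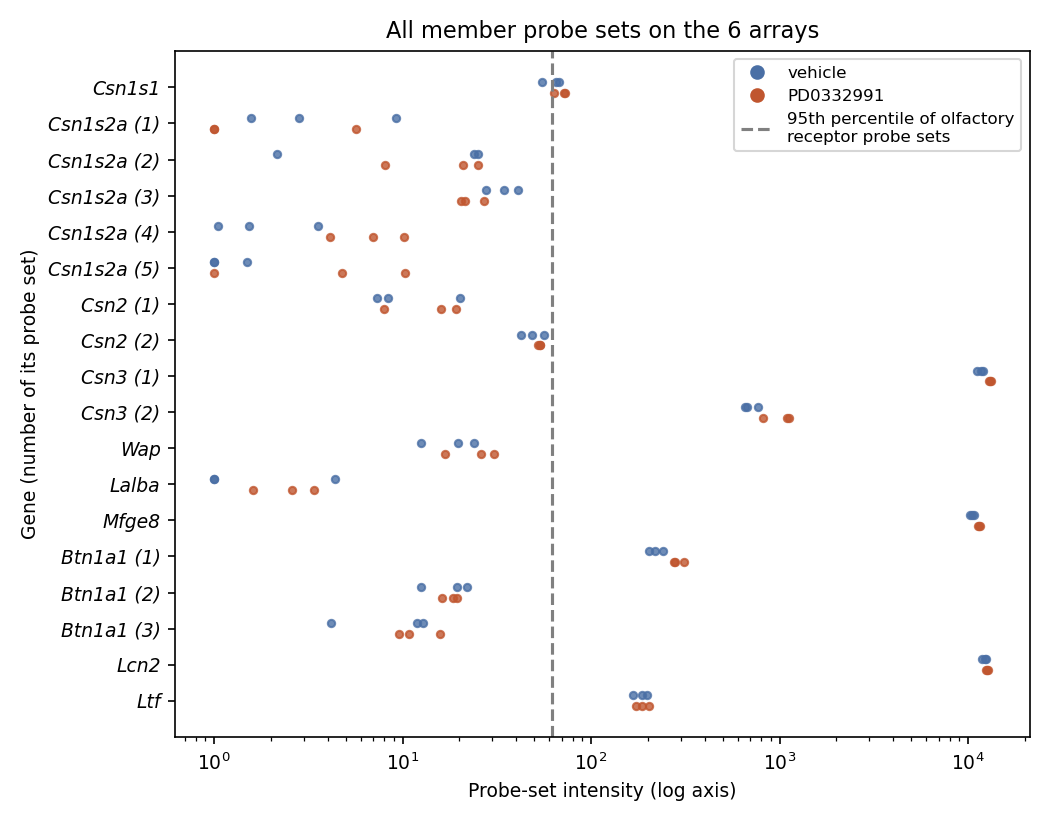
Intensity of each of the 18 probe sets (vertical axis, numbered within a gene) on a log axis, with 1 point per array, blue for vehicle and orange for PD0332991. The dashed line is the 95th percentile of 44 olfactory receptor probe sets, 61.9, and Csn3, Mfge8, Btn1a1, Lcn2 and Ltf each have a probe set wholly to its right.

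Among the caseins, kappa-casein stood apart. Csn3, which encodes the casein that coats and stabilises the micelle, had intensities of 11156, 12025 and 11646 on the vehicle arrays and 13218, 13043 and 12976 on the PD0332991 arrays. All 3 PD0332991 values lay above all 3 vehicle values, and vehicle replicate 1, the array with the lowest spike-in signal, was the lowest. The means were 11609 ± 436 and 13079 ± 125 (SD, n = 3 each), a log2 fold change of 0.17 (SE 0.04, 95% interval 0.07 to 0.27, limma adjusted p = 0.0336). The other Csn3 probe set was dimmer, with 653.9, 767.2 and 668.0 on the vehicle and 1125, 1095 and 817.6 on the PD0332991 arrays. Its groups did not overlap either, and its log2 fold change of 0.52 (SE 0.14) was larger but missed the threshold in the fit over all 34945 probe sets (limma adjusted p = 0.0533).

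The Csn3 call was not firm. It was lost when any array but vehicle replicate 2 was left out (adjusted p = 0.0798 and 0.0900 on removal of vehicle replicate 1 or 3, and 0.0996, 0.0910 and 0.0821 on removal of each PD0332991 array in turn), with log2 fold changes of 0.14 to 0.20. After spike-in centring the log2 fold change was 0.045 (adjusted p = 0.835), and 0.099 without vehicle replicate 1 (adjusted p = 0.401). The brighter probe set lay at the 99.9th percentile of all probe sets, and the highest intensity on any array was 15394 to 16148, so that the signal was near the top of the range. Of the 135 genes with a mean log2 value above 13, a limit chosen after the values were seen, 7.41% were called higher and the median log2 fold change was 0.02. Because probe sets differ in affinity, such positions describe array signal and do not rank transcripts by abundance.

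The other 3 caseins were at or near the background. Csn1s1, an alpha-S1 casein, had intensities of 65.5, 67.6 and 54.7 with vehicle and 72.7, 71.7 and 63.7 with PD0332991. These lie close to the gauge of 61.9, the groups overlapped, and the log2 fold change of 0.12 (95% interval -0.08 to 0.32) did not pass the test (limma adjusted p = 0.360). For Csn2, beta-casein, the brighter probe set gave 56.0, 42.3 and 48.5 with vehicle and 52.0, 53.9 and 53.4 with PD0332991, and the dimmer one 7.35 to 20.2 over all 6 arrays. The groups overlapped on both of its probe sets, and the limma adjusted p for the gene was 0.479.

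Csn1s2a, an alpha-S2-like casein, had 5 probe sets, all below the gauge. The brightest gave 40.8, 27.7 and 34.5 with vehicle and 21.5, 27.2 and 20.5 with PD0332991, so that the PD0332991 arrays were the lower ones (limma adjusted p = 0.0798). Another moved the opposite way without overlap, from 1.53, 1.05 and 3.54 to 6.96, 10.2 and 4.13. The other 3 probe sets overlapped between the groups, and the mean of all 5 turned the sign of the gene's change (log2 0.05). After spike-in centring Csn1s2a was called lower (adjusted p = 0.0423), as it was without vehicle replicate 2 (adjusted p = 0.0473).

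The caseins lie together on chromosome 5, in the gene order of a RefSeq table (GRCm38.p6). From Csn1s1 to Csn3 the arrays measured 7 genes: Csn1s1, Csn2, Csn1s2a, Csn1s2b, Prr27, Odam and Csn3. Of these, 3 were above the gauge and Csn3 was the only one called. Csn1s2b, another casein, had intensities of 14.4 ± 7.05 and 18.4 ± 1.08 (SD, n = 3 each) and Odam, next to Csn3, 32.6 ± 2.83 and 40.1 ± 7.52 (SD, n = 3 each). Prr27 was at 151.9 ± 10.8 and 144.7 ± 0.346 (SD, n = 3 each). The strong signal of Csn3 was therefore not shared by its measured neighbours within the cluster.

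The promoters of 8 of the 10 genes were held by a RefSeq table of windows from 250 bases before to 50 after each gene's start (GRCm38.p6), while Csn3 and Btn1a1 had no entry. The letters TTCNNNGAA, which read the same on both strands and are the palindrome that STAT5 is known to bind, were found once each in the windows of Csn1s1, Csn2 and Csn1s2a, and 8.30% of all 32851 windows held them. The first base of the match was at -100 in Csn1s1, -93 in Csn2 and 21 in Csn1s2a, where base 1 is the start of the gene. The windows of Wap, Lalba, Mfge8, Lcn2 and Ltf held no such letters. A narrow form of the kappa-B motif was also searched for on both strands. None of the 8 windows held that form, against 1.63% of all windows. Other forms were not searched for, so whether the 8 windows hold other kappa-B sites was not tested. The 250 bases before the start are shown 5′ to 3′ for Csn1s1, Csn2, Lcn2 and Mfge8. Csn1s1 and Csn2 had the TTCNNNGAA letters and little signal. Lcn2 and Mfge8 had strong signal and no match to those letters. Capitals mark the TTCNNNGAA letters.
Csn1s1, chr5:87665958-87666207, plus strand: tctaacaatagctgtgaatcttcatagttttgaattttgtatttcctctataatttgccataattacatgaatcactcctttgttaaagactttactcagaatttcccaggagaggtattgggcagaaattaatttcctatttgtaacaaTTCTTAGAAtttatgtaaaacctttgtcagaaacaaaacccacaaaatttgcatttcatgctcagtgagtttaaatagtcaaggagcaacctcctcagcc
Csn2, chr5:87699426-87699675, minus strand: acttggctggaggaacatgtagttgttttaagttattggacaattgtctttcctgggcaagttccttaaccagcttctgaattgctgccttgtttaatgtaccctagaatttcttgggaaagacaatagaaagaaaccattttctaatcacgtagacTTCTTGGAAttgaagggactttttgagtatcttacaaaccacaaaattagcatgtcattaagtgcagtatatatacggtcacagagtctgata
Lcn2, chr2:32387740-32387989, minus strand: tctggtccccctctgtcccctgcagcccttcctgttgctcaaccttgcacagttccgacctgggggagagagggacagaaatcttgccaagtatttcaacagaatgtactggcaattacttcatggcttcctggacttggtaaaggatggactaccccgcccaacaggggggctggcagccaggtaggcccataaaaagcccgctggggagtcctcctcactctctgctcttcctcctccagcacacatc
Mfge8, chr7:79149061-79149310, minus strand: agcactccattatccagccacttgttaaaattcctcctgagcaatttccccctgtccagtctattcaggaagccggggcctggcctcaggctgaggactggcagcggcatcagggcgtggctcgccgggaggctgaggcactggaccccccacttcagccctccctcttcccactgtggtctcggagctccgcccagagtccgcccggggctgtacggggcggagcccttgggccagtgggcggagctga

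Of the 8 genes with a window, the 3 that held the letters were near or below the gauge, as were Wap and Lalba, which did not hold them. Csn3, the casein with strong signal, could not be compared. A match describes the letters only, and nothing was measured at these promoters.

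Whey proteins gave no signal above the gauge. Wap, the whey acidic protein of rodent milk, had intensities of 19.7, 12.5 and 23.9 with vehicle and 26.1, 30.6 and 16.7 with PD0332991. Lalba, alpha-lactalbumin, which joins a galactosyltransferase to form lactose synthase, had 1.00, 1.00 and 4.41 with vehicle and 3.38, 2.58 and 1.61 with PD0332991. The groups overlapped for both genes, and the limma adjusted p was 0.452 for Wap and 0.826 for Lalba. A value of exactly 1 was common at the low end of the deposited table, at 2.41% of all values, so that the lowest Lalba values carry no order.

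The milk fat globule genes were both above the gauge. Mfge8 encodes lactadherin, a coat protein of the globule that also bridges phosphatidylserine on dying cells to integrins. Its single probe set gave 10226, 10777 and 10516 on the vehicle arrays and 11480, 11281 and 11623 on the PD0332991 arrays. It lay at the 99.8th percentile of all probe sets, near the top of the range. The groups did not overlap, but the log2 fold change of 0.13 (SE 0.04, 95% interval 0.03 to 0.22) missed the threshold (limma adjusted p = 0.0663). The gene was called when dim genes were left out (adjusted p = 0.0128), with a pseudocount of 64 (adjusted p = 0.0330) and with trended, robust eBayes (adjusted p = 0.000481), whereas spike-in centring brought the value to -0.0016. Of the integrin subunits that bind lactadherin, named after their values were seen, Itgav rose from 4385 ± 105 to 5576 ± 63.4 and Itgb5 from 1630 ± 38.9 to 1946 ± 43.8 (SD, n = 3 each). Itgb3 had values of 533.0 ± 9.17 and 614.2 ± 39.7 (SD, n = 3 each, limma adjusted p = 0.0529).

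Btn1a1, butyrophilin, the membrane protein that takes part in budding of milk fat droplets, showed the largest called change of the 10 genes. Its brightest probe set gave 218.9, 203.8 and 239.8 on the vehicle arrays and 276.7, 280.2 and 311.3 on the PD0332991 arrays, without overlap. The means of 220.9 ± 18.1 and 289.4 ± 19.0 (SD, n = 3 each) correspond to a log2 fold change of 0.37 (SE 0.07, 95% interval 0.18 to 0.55, limma adjusted p = 0.0207). The other 2 probe sets were below the gauge, at 12.6 to 21.9 and 4.17 to 15.8 over the 6 arrays, with the groups overlapping. The mean of the 3 probe sets was not called (log2 0.17, adjusted p = 0.270). The call rests on the brightest probe set, whose type can match several transcripts. With such probe sets left out, the dimmest one, at 4.17 to 15.8, stood for the gene. The log2 fold change was then 0.14 (limma adjusted p = 0.631), from signal below the gauge.

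The Btn1a1 call was lost without vehicle replicate 1 (adjusted p = 0.0690), vehicle replicate 2 (0.0566), PD0332991 replicate 2 (0.0536) or PD0332991 replicate 3 (0.0574), while the log2 fold change stayed between 0.32 and 0.42. After spike-in centring it was 0.24 (adjusted p = 0.256), and 0.32 without vehicle replicate 1 (adjusted p = 0.170). Xdh, xanthine dehydrogenase, which binds butyrophilin in the globule membrane and was named after its value was seen, had 198.8 ± 5.14 with vehicle and 149.2 ± 24.6 with PD0332991 (SD, n = 3 each, log2 fold change -0.39, limma adjusted p = 0.0588). The values of the 2 partners thus lay in opposite directions, and the difference between them was not tested.

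**Figure D2:**
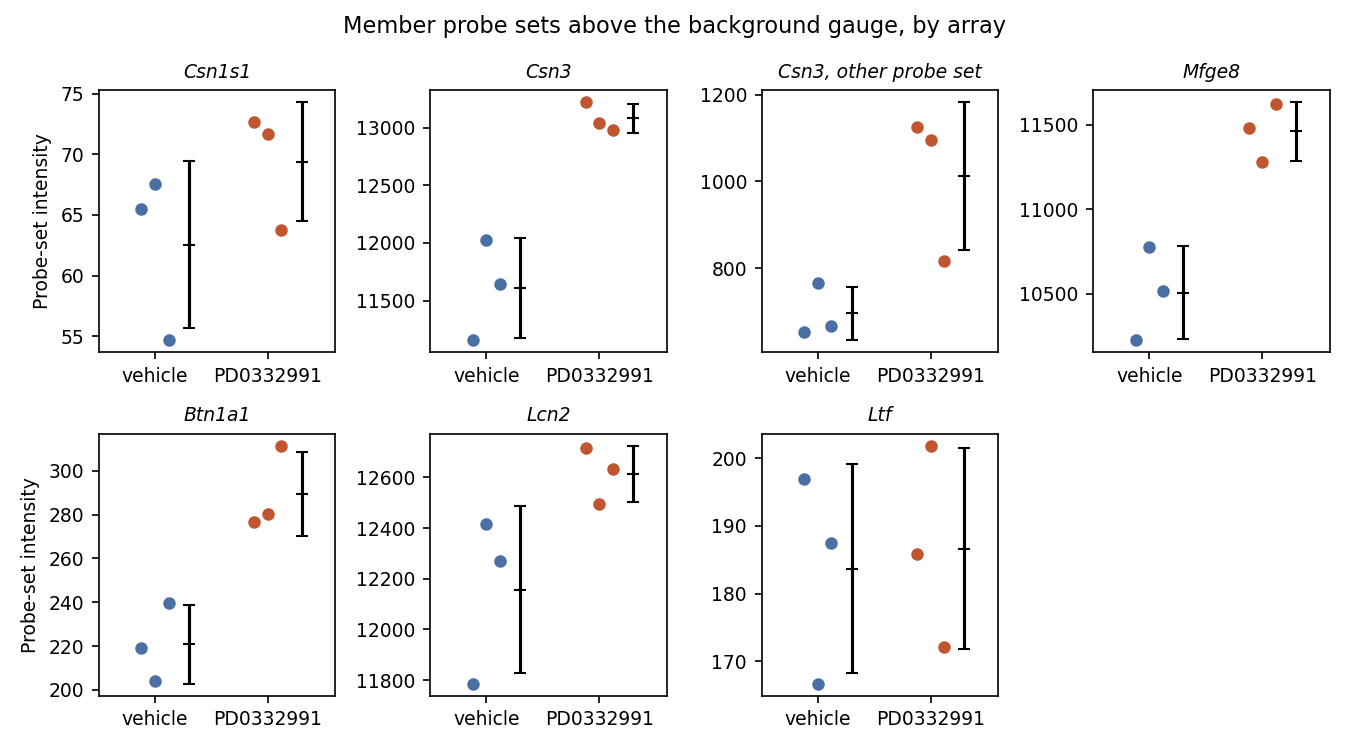
Intensity of the 7 probe sets above the gauge, with 1 point per array and the mean and SD (n = 3) beside each group. Each panel has its own vertical axis, which does not start at 0. The groups separate for both Csn3 probe sets, Mfge8, Btn1a1 and Lcn2 and overlap for Csn1s1 and Ltf.

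Both antimicrobial genes had signal, and neither passed the test. Lcn2 encodes lipocalin 2, which binds bacterial iron-carrying siderophores. It had intensities of 11785, 12415 and 12268 with vehicle and 12714, 12496 and 12632 with PD0332991. Its single probe set lay at the 99.9th percentile of all probe sets, near the top of the range like the brighter one of Csn3. The groups did not overlap, by a narrow gap, and vehicle replicate 1 was again the lowest array. The log2 fold change was 0.05 (SE 0.04, 95% interval -0.04 to 0.14, limma adjusted p = 0.375), and -0.07 after spike-in centring. Slc22a17, a lipocalin 2 receptor named after its value was seen, was 177.8 ± 1.68 with vehicle and 204.8 ± 11.2 with PD0332991 (SD, n = 3 each, log2 fold change 0.19, limma adjusted p = 0.0416).

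Ltf encodes lactoferrin, the iron-binding protein of milk and of neutrophil granules. Its intensities were 197.0, 166.7 and 187.5 with vehicle and 185.8, 201.8 and 172.2 with PD0332991, fully overlapping. The log2 fold change of 0.02 had a 95% interval of -0.18 to 0.22 (limma adjusted p = 0.888), and it was -0.11 after spike-in centring. The interval belongs to the fit without centring and does not cover larger changes under another scaling.

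**Figure D3:**
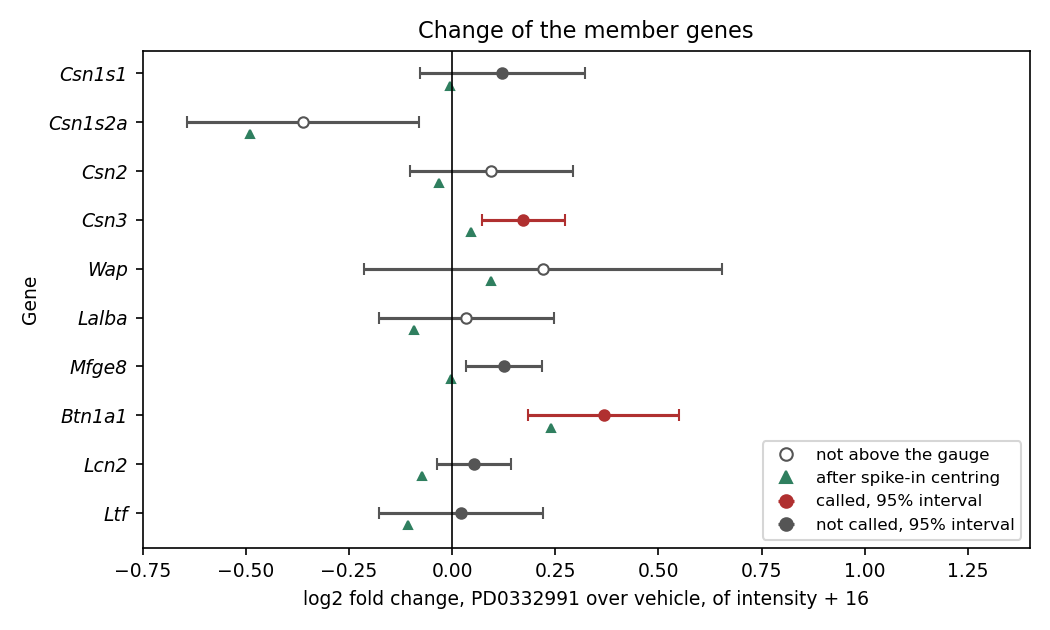
Log2 fold change of the 10 genes (horizontal axis, PD0332991 over vehicle, of intensity + 16) with 95% intervals from the limma fit, red where called and open where no probe set was above the gauge. Triangles give the value after spike-in centring, which lowers each gene by a like amount and brings Csn3 to 0.045 and Mfge8 to -0.0016.

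Over the 10 genes, the groups did not overlap in 5, which were Csn3, Csn1s2a, Mfge8, Btn1a1 and Lcn2, against 38.9% of all genes tested. In the fit of every probe set on its own, 2 of the 18 were called, the brightest of Csn3 and of Btn1a1, against 17.6% of all probe sets.

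Cells of other types that make these proteins were sought among the markers. Of the 9 measured neutrophil markers other than Lcn2 and Ltf, 8 were not above the gauge, including Mpo, Elane, Camp and Ngp. The exception was S100a8, which rose from 291.1 ± 18.9 to 380.3 ± 20.4 (SD, n = 3 each, limma adjusted p = 0.0124). The summed signal of the 9 was 370.9 to 426.8 with vehicle and 475.2 to 512.9 with PD0332991. Macrophages also make lactadherin. Of 12 macrophage markers, 4 were called higher: Cd68 and Adgre1 above the gauge, and Mrc1 and Tyrobp under it. The share of all genes tested that were called higher was 9.81%. Csf1r was above the gauge and was not called. Cd68 rose from 230.1 ± 15.2 to 307.7 ± 14.7 (SD, n = 3 each, limma adjusted p = 0.00874). In all, 9 markers were not above the gauge, among them C1qa, C1qb and Itgam. The summed signal of the 12 was 591.3 to 622.9 with vehicle and 729.1 to 737.5 with PD0332991. After spike-in centring none of the macrophage or neutrophil markers was called, and 1 macrophage marker was if vehicle replicate 1 was also removed. The part of these markers in the values of Lcn2, Ltf and Mfge8 was not tested.

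Alveolar markers beyond the 10 genes were present in part. Elf5, the alveolar transcription factor, and the secretory surface genes Muc15 and Folr1 had signal, as did Xdh, while Olah and Glycam1 were not above the gauge. Glycam1, a mucin-like milk protein, was listed at 1.0 on every array. Muc15 had 2593 ± 89.7 and 2334 ± 119 (SD, n = 3 each, limma adjusted p = 0.103), and Folr1 1507 ± 76.3 and 1474 ± 199 (SD, n = 3 each, limma adjusted p = 0.841).

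The prolactin-STAT5 list had 4 of 28 measured genes higher and 5 lower, where 9.81% and 11.2% of all genes tested were. Its median change was 0.06 on the log2 scale. Elf5 fell from 4305 ± 175 to 3325 ± 38.4 (SD, n = 3 each), 1.29-fold (limma adjusted p = 0.00293), and its dimmer probe set fell too. Foxa1, a luminal pioneer factor, fell 1.25-fold, and Stat5b, named after its value was seen, fell 1.20-fold. Stat5a had 428.6 ± 20.3 and 387.5 ± 20.6 (SD, n = 3 each, limma adjusted p = 0.146), and Jak2 959.2 ± 27.4 and 966.2 ± 19.4 (SD, n = 3 each, limma adjusted p = 0.884). Cav1, caveolin 1, rose 1.58-fold and Ghr, the growth hormone receptor, 1.24-fold. After spike-in centring 1 gene of the list was higher and 5 were lower. The prolactin receptor was not analysed here.

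Of 29 other milk and secretory genes, 6 were higher and 2 lower, where 9.81% and 11.2% of all genes tested were. The counts were 1 and 1 after spike-in centring, and 3 and 0 if that was done without vehicle replicate 1. The median change of the 29 genes was 0.10 on the log2 scale. Sftpd, a collectin that binds microbes, rose from 214.4 ± 16.4 to 575.0 ± 75.2 (SD, n = 3 each), and Nucb2, nucleobindin 2, rose 1.38-fold. Ceacam1, an adhesion molecule, fell from 3919 ± 171 to 3407 ± 38.0 (SD, n = 3 each), a call lost on removal of any of 5 arrays. Muc1 was lower at intensities under the gauge (33.3 ± 1.68 and 23.1 ± 3.70, SD, n = 3 each), a call also lost on removal of any of 5 arrays. Of the 10 genes described above, none changed by as much as Sftpd.

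Beside the next 2 lists stand the shares of all genes tested, 9.81% called higher and 11.2% lower. In the milk fat list 5 of 30 genes were higher and 1 lower (2 and 1 after spike-in centring). The list's median change was 0.05 on the log2 scale. Abcg2, a transporter that secretes riboflavin and other compounds into milk, rose 1.47-fold and Slc27a4, a fatty acid transporter, 1.30-fold. Elovl6, a fatty acid elongase, fell 1.18-fold, a call lost on removal of any of 4 arrays. In the lactose and transport list 2 of 23 genes were higher, none after spike-in centring, and 1 lower. These were Hk2, a hexokinase (1.33-fold higher), Slc35a2, which carries UDP-galactose into the Golgi (1.25-fold higher), and Atp2c2, a secretory pathway calcium pump (1.31-fold lower). When probe sets of types that can match several transcripts were left out, the brightest of Slc35a2 was among them. The probe set used instead was below the gauge and gave a log2 fold change of -0.14.

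The involution and acute phase list holds signals that raise Lcn2 in epithelia, with genes of the weaning gland. In it 11 of 33 genes were higher and 3 lower, where 9.81% and 11.2% of all genes tested were. The difference from those shares was not tested. After spike-in centring 2 genes were higher and 2 lower. The list's median change was 0.13 on the log2 scale. The count of higher genes was 6 to 8 when 1 array was left out. Il6, an inducer of the acute phase, rose from 30.5 ± 2.28 to 67.8 ± 1.16 (SD, n = 3 each), the vehicle level being below the gauge. Bcl3, a partner of NF-kappa-B, fell 1.29-fold and Osmr, the oncostatin M receptor subunit, 1.26-fold. Lcn2 itself moved by 0.05 on the log2 scale on the same arrays. That value comes from 1 probe set near the top of the range, and whether this hid a change was not tested.

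**Figure D4:**
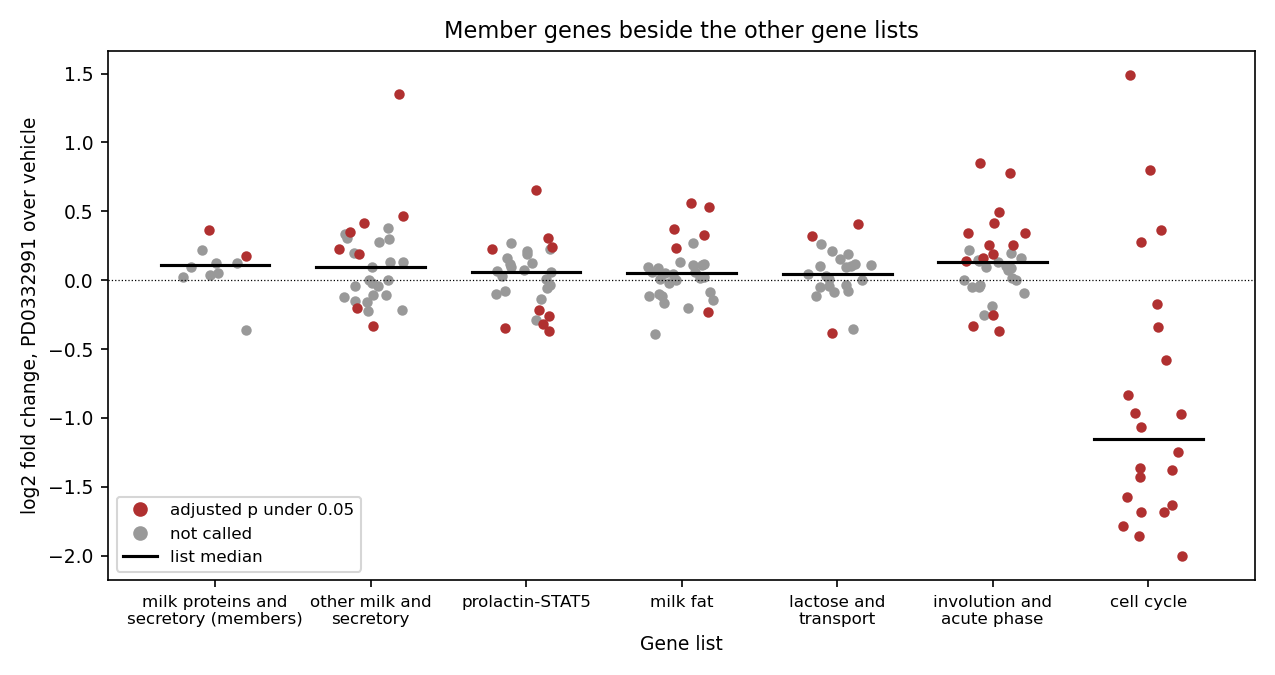
Log2 fold change (vertical axis, PD0332991 over vehicle) of each measured gene in the milk protein and secretory set and in 6 further lists, red where the adjusted p was under 0.05, with a bar at each list's median. The medians of the first 6 lists lie between 0.05 and 0.13 and that of the cell cycle list at -1.16.

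For the called genes Csn3 and Btn1a1, the genes with the most similar pattern over the 6 arrays were sought among those above the median signal, by Pearson correlation of log2 values. Those nearest to Csn3 were Dap (r = 0.9982), Ncam1 (r = 0.9977) and Acox2 (r = 0.9971), and those nearest to Btn1a1 were Snx24 (r = 0.9984), Vamp8 (r = 0.9963) and Fibp (r = 0.9962). With 6 points in 2 groups from shared arrays, such correlations carry both the group difference and array effects. Ncam1, a neural cell adhesion molecule, rose from 445.3 ± 34.6 to 554.5 ± 9.07 and Acox2, a peroxisomal oxidase, from 1628 ± 85.5 to 1961 ± 25.5 (SD, n = 3 each), whereas Dap was not called (limma adjusted p = 0.0879).

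The other genes are scattered in the same RefSeq table, Wap on chromosome 11, Lalba on 15, Mfge8 on 7, Btn1a1 on 13, Lcn2 on 2 and Ltf on 9. Of the nearest measured neighbours on either side, 5 outside the set were called, where 21.0% of all genes tested were called. So small a count was not tested against that share. Not called outside the set were Sult1e1, Csn1s2b, Odam, Ramp3, H1f7, Kansl2, Abhd2, C230035I16Rik, Gm11335, Ptges2 and Rtp3. Cabs1, next after Csn3, was higher (log2 fold change 0.39, limma adjusted p = 0.0395) and Hapln3, beside Mfge8, lower (-0.30, limma adjusted p = 0.0291), both at intensities under the gauge. Tbrg4, beside Wap, fell by 0.26 on the log2 scale (limma adjusted p = 0.0430). Ccrl2, a chemokine-binding receptor next to Ltf, fell by 0.52 on the log2 scale, from 605.0 ± 6.74 to 417.6 ± 5.23 (SD, n = 3 each, limma adjusted p = 0.000319). The unnamed clone 1110008P14Rik next to Lcn2 rose by 0.39 on the log2 scale, from 2746 ± 119 to 3605 ± 102 (SD, n = 3 each, limma adjusted p = 0.00351). The differences between the members and their neighbours were not tested.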

How the data were processed

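The values were the authors' deposited table of 1 linear probe-set intensity per array. RNA was column-purified and biotin-labelled per the labels' protocols, and the summarisation, its scaling and any detection calls are not given in the sources used here. Left out were the 64 control probe sets. Gene symbols came from the platform annotation, which can be old, and 18032 of 18194 genes matched the RefSeq table. Intensities were transformed to log2(intensity + 16), which understates changes of dim genes, and compared by limma 3.58.1 (lmFit, eBayes; R 4.3.3) without a replicate block, each p being two-sided, adjusted by Benjamini-Hochberg over the 18194 genes and called under 0.05. Probe sets were also fitted one by one. Summaries used Python 3.11.15 with pandas 2.3.3 and matplotlib 3.10.9. The fit was tested on simulated arrays. The number of arrays limits the precision. Arrays brought to like levels cannot show whether cells held more or less RNA in all.

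The genes and lists were chosen with earlier results of these data known. Named were all 10 genes, up to 4 genes per list (smallest p, at most 2 higher and 2 lower), like-pattern genes of called members and their nearest neighbours. Alternatives were a replicate block, quantile, median and spike-in centring, pseudocounts of 1 and 64, dim genes or multiply matching probe sets left out, the mean of probe sets, trended robust eBayes, a threshold of 0.01 and each array left out.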

Additional observations from a re-analysis of the deposited data

How the results depend on the processing

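Over the 10 genes, 134 of 170 alternative values kept their direction and their side of the threshold. That count is no measure of firmness. Of the 10 genes, 8 were not called at the start, and a setting such as the stricter threshold cannot change a direction. A call was lost in 18 values, all of them of Csn3 or Btn1a1. The count of genes called among the 10 was 2, and 1 with a replicate block, 1 after spike-in centring (Csn1s2a, lower), 0 with spike-in centring without vehicle replicate 1, 1 with the mean of probe sets, 1 without probe sets that can match several transcripts, 0 at a threshold of 0.01 and 0 to 2 with 1 array left out. For member probe sets the count was 2, and 1 with a replicate block, 0 after spike-in centring, 1 and 4 with pseudocounts of 1 and 64, 0 at 0.01 and 0 to 2 with 1 array left out. All genes called numbered 3820, and 2046 with a replicate block, 1715 after spike-in centring (240 higher and 1475 lower, against 1785 and 2035), 1571 with that centring on 5 arrays, lacking vehicle replicate 1 (412 higher and 1159 lower), 1703 at 0.01 and 2497 to 2683 with 1 array left out. Signs turned after spike-in centring for Csn1s1 (-0.0049), Csn2 (-0.032), Lalba (-0.092), Mfge8 (-0.0016), Lcn2 (-0.074) and Ltf (-0.11), after the same without vehicle replicate 1 for Lalba (-0.055) and Lcn2 (-0.014), with the mean of probe sets for Csn1s2a (0.048), and with other probe sets for Slc35a2 (-0.14). With 1 array left out, Lalba ranged from -0.0092 to 0.12 and Ltf from -0.041 to 0.073. No pairing of the arrays by replicate number was seen. Same-numbered deviations correlated at 0.0075, -0.052 and 0.049, and not every array correlated best with its own number. With so few arrays, these correlations cannot show that the arrays were unpaired. Under the replicate block the Csn3 call was lost (adjusted p = 0.0995). The causes were not tested. Signals near the background limit what can be said of Csn2, Csn1s2a, Wap and Lalba.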
